A study of Homo sapiens with 9 samples.

Results

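The genes described here are ATRX and 37 other genes for ATP-dependent chromatin remodellers, their core subunits and histone methyltransferases. They were picked from the 54562 genes of the expression table because ATRX was strongly lower in cells expressing the long isoform of ADARB1. All 38 symbols were matched to Ensembl identifiers, and 37 of them passed the expression filter that left 13801 genes for testing. DAXX did not pass it. Because the members were selected on the Long against EV values, that comparison is given as a description. Its calls count genes past a threshold and are printed without p-values, and nothing about the members is read from them.

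HEK293, a human embryonic kidney line transformed with adenovirus DNA, was transfected with a Lipofectamine reagent and collected 48 hours later. The 3 groups carried the empty vector (EV), a plasmid for ADARB1 without the *Alu* exon (Short) or a plasmid for ADARB1 with it (Long). ADARB1 is an adenosine deaminase that edits double-stranded RNA, and the *Alu* exon adds a peptide to its catalytic domain. Each group had 3 libraries of polyA RNA, and the transfections were repeated in 3 cell passages. Libraries with the same replicate number are taken here as the same passage, which the labels do not state. Both isoform plasmids were built in pCMV6-AC, in which the strong viral CMV promoter drives the insert. All cells, EV included, went through the same transient transfection, and cells that took up no plasmid stayed in the pool. All groups share the HEK293 background, so the values describe 1 line.

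Chromatin remodellers use ATP to slide, eject or exchange nucleosomes, and they are grouped by their SNF2-type ATPase. ATRX works with the histone chaperone DAXX to place the variant histone H3.3 at telomeres and pericentric repeats. CHD proteins carry paired chromodomains, ISWI enzymes space nucleosomes together with BAZ or BPTF partners, BAF and PBAF complexes open promoters and enhancers, and INO80, SRCAP and EP400 act on the histone variant H2A.Z. SETD2, ASH1L and KMT2A methylate lysines of histone H3. Most of these genes have long coding sequences, and loss of several of them is known from developmental disorders and tumours.

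The members differed in the base composition of their transcripts, and the stretches below show this at both ends of the Long against EV values. Each is the middle 90 bases of the gene's longest coding exon in GRCh37, written 5′ to 3′ on the coding strand, with G and C in capitals. The first 4 are from the members with the lowest difference of Long minus EV, and the last 4 from those with the highest. The fifth is from SMARCE1, which had the smallest difference of the members under 40% GC in their longest annotated transcript.
ATRX, chrX:76938504-76938593, minus strand: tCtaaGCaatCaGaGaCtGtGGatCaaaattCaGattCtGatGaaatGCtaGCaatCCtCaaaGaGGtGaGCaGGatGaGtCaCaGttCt
CHD9, chr16:53190683-53190772, plus strand: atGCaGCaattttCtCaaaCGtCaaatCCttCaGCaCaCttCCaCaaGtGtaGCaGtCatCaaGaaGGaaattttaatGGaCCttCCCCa
CHD1, chr5:98192213-98192302, minus strand: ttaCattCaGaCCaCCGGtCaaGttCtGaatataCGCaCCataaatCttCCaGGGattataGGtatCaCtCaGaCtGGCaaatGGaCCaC
SMARCAD1, chr4:95173918-95174007, plus strand: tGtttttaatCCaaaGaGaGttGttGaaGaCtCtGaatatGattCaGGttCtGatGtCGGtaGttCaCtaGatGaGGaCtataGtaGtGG
SMARCE1, chr17:38786989-38787078, minus strand: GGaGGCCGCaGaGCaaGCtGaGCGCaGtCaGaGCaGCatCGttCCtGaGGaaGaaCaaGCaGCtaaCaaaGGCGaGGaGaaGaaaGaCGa
CHD8, chr14:21899377-21899466, minus strand: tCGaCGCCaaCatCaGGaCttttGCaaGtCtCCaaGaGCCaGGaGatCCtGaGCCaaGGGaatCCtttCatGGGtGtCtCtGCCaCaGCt
KMT2A, chr11:118375192-118375281, plus strand: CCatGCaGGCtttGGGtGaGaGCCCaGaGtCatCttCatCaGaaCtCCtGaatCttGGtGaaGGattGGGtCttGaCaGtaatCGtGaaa
SMARCC1, chr3:47651642-47651731, minus strand: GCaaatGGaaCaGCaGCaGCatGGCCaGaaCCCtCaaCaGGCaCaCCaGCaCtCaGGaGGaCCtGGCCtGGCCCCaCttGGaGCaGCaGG
ARID1A, chr1:27106334-27106423, plus strand: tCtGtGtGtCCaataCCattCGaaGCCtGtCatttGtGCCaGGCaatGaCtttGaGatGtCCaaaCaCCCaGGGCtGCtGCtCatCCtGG

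G and C made up 41.1% of the ATRX stretch, 41.1% of the CHD9 stretch, 43.3% of the CHD1 stretch and 37.8% of the SMARCAD1 stretch. They made up 53.3% of the CHD8 stretch, 47.8% of the KMT2A stretch, 62.2% of the SMARCC1 stretch and 51.1% of the ARID1A stretch. The SMARCE1 stretch held 55.6% G and C, whereas its longest annotated transcript (8466 nt) holds 38.4% and its Ensembl canonical transcript (5150 nt) 42.0%. The table does not show which of them the cells expressed, so SMARCE1 is under 40% GC only by the longest one. Over whole transcripts the values were 36.9% for ATRX, 38.4% for CHD9, 37.98% for CHD1 and 37.1% for SMARCAD1, against 49.3% for CHD8, 46.9% for KMT2A, 46.5% for SMARCC1 and 57.5% for ARID1A.

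FPKM, the unit of the table, scales the fragments of a gene by its transcript length and by how many fragments the library had mapped. Summed FPKM per library lay between 517170 and 589535, and the depth relative to EV replicate 1 between 0.993 and 1.21. The passage 3 libraries were the deepest, at 1.16 in EV, 1.21 in Short and 1.11 in Long, and the others reached at most 1.07. ADARB1 was at 7.66 to 8.61 FPKM in EV, 1889 to 4145 in Short and 1695 to 3449 in Long. HEK293 markers were present in every library (VIM 132 to 164 FPKM, NEFM 48.6 to 75.5, PAX2 1.73 to 2.87). Of the markers of other cell types that were matched, PTPRC and CD3E stayed at or under 0.131 and 0.0436 FPKM, ALB at or under 0.326 and HBB at 0, whereas the collagen gene COL1A1 was at 9.10 to 12.9.

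In EV the members covered a wide range of levels. CHD4, the ATPase of the NuRD complex, was the most abundant at 103 ± 8.60 FPKM (mean ± SD, n = 3), followed by the BAF subunits SMARCE1 at 99.4 ± 10.95 and SMARCB1 at 83.2 ± 4.86 and the BAF ATPase SMARCA4 at 63.6 ± 4.09. CHD4 and SMARCE1 overlapped across their EV libraries. INO80 was the lowest of the 37 at 6.57 ± 0.595 FPKM, and CHD9 (7.04 ± 1.81) and BAZ2B (7.39 ± 2.16) next to it did not differ from it beyond their spread. ATRX was the 26th of the 38, and 60.1% of the genes tested were lower than ATRX in EV.

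ATRX (ENSG00000085224) lies on the minus strand of chrX:76760358-77041719 in GRCh37, and its longest annotated transcript has 11165 nt. ATRX was at 15.2, 12.3 and 20.5 FPKM in EV replicates 1 to 3. The Short libraries had 4.17, 7.96 and 21.0 FPKM, and the Long libraries 2.55, 2.81 and 12.3 FPKM. Long replicates 1 and 2 were lower than every other library, whereas Long replicate 3 was level with EV replicate 2, and the EV and Short libraries overlapped. The group means were 15.99 ± 4.16 FPKM in EV, 11.05 ± 8.83 in Short and 5.89 ± 5.57 in Long (SD, n = 3). A lower value in a pool of transfected cells can come from fewer cells with the transcript or from less transcript per cell, and the libraries cannot tell these apart.

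Within passages ATRX was lower in Long than in EV in 3 of 3, by 5.95-fold in passage 1, 4.38-fold in passage 2 and 1.66-fold in passage 3 on the scale of FPKM. The fitted difference was -1.56 on the log2(FPKM + 1) scale (SE 0.26), a scale that understates changes of low genes. Short against EV shares the EV libraries with the comparison that chose the genes. There the differences in log2(FPKM + 1) were -1.64, -0.57 and 0.03 in passages 1 to 3, so ATRX was lower in 2 of 3 and level in the third. The fitted value was -0.73 (SE 0.26, 95% confidence interval -1.30 to -0.15), which did not pass the threshold of 0.05 (limma with Benjamini-Hochberg adjustment, adjusted p = 0.151). An exact two-sided permutation test gave p = 0.4 unpaired, where 0.1 is the smallest p possible, and p = 0.5 paired by passage, where 0.25 is the smallest.

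Long against Short shares the Long libraries with the comparison that chose the genes. ATRX was lower in Long in 3 of 3 passages, with differences of -0.54, -1.23 and -0.72 in log2(FPKM + 1). The fitted difference was -0.83 (SE 0.26, 95% confidence interval -1.41 to -0.26) and did not pass the threshold (limma with Benjamini-Hochberg adjustment, adjusted p = 0.547). By exact permutation, two-sided, p was 0.5 unpaired and 0.25 paired, the smallest paired p that 3 passages allow. A difference in ATRX between the isoforms was therefore not called in these libraries, and the interval is wide.

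**Figure D1:**
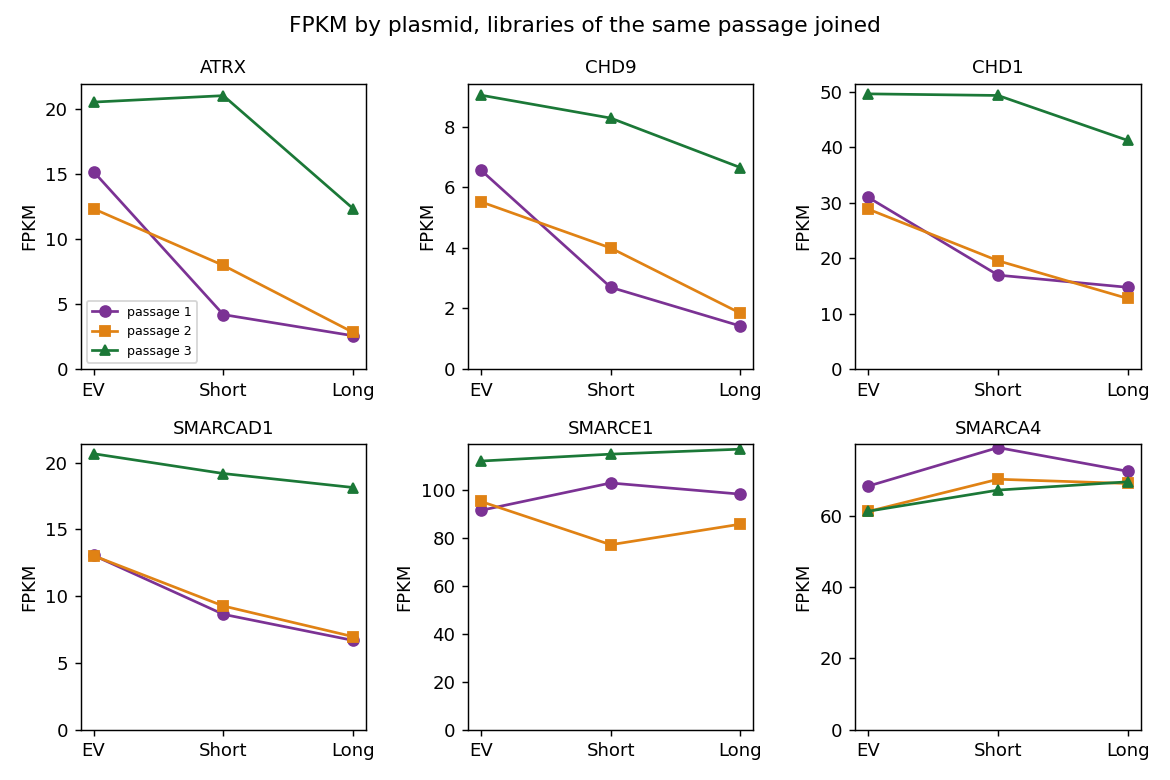
FPKM of ATRX, CHD9, CHD1, SMARCAD1, SMARCE1 and SMARCA4 under EV, Short and Long, with libraries of the same passage joined and the vertical axes starting at 0. In ATRX, CHD9, CHD1 and SMARCAD1 the passage 3 line lies above the lines of passages 1 and 2 under every plasmid, and in SMARCA4 the lines lie close together.

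DAXX (ENSG00000204209, chr6:33286335-33290793), the partner of ATRX, had listed values of 0, 0.0161 and 0.0285 FPKM under EV. The Short libraries gave 0.0665, 0.0462 and 0.0136 FPKM, and the Long libraries 0.0330, 0.0326 and 0.0148 FPKM. The values of its neighbours limit how this can be read. Of the 13 protein-coding genes annotated from RXRB to DAXX on chr6:33161365-33290793, 11 were listed at 0 in every library, and these include RPS18, a protein of the small ribosomal subunit that every cell uses. The highest value in the region was 0.787 FPKM, for TAPBP. The near-zero value of DAXX therefore does not show that HEK293 lacks the transcript. Why the region is listed so low was not tested.

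The H3.3 genes and the other H3 chaperones were 9 in all, and all were tested. None was called in Long against EV, Short against EV or Long against Short (limma with Benjamini-Hochberg adjustment). Over all genes 6.33% were called lower and 1.99% higher in Long against EV, 0.0362% in Short against EV and 0.00725% in Long against Short. At an unadjusted p under 0.05 there were 3 (2 lower and 1 higher), 1 (higher) and 0, in that order. Of all genes, 6.88% were lower and 15.2% higher there in Short against EV, and 5.93% and 1.61% in Long against Short. For Long against EV the share of all genes at that threshold was not counted. In the 9 genes the differences of Long minus EV ran from -0.26 for ASF1A to 0.17 for HIRA in log2(FPKM + 1). ASF1A, which hands H3 and H4 to other chaperones, was at 8.92, 9.83 and 14.1 FPKM in EV, 8.51, 7.79 and 13.1 in Short and 7.24, 7.21 and 12.9 in Long. The H3.3 gene H3F3B was at 131, 134 and 141 FPKM in EV, 147, 141 and 139 in Short and 139, 154 and 146 in Long. HIRA, the chaperone that places H3.3 in active genes, was at 21.8, 17.9 and 19.1 FPKM in EV, 22.8, 21.5 and 21.7 in Short and 21.6, 22.2 and 22.3 in Long. The groups overlapped in all 3 genes. ASF1A, H3F3B and HIRA were picked from this list after their values were seen.

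The 8 CHD genes differed in both directions. Of the 8, 2 were called lower in Long than in EV (beside 6.33% of all genes tested) and 1 higher (beside 1.99%), which describes the comparison that chose them. Their median difference in log2(FPKM + 1) was 0.01, beside 0.04 over all genes. The family median changes sign under other scalings, to -0.06 with FPKM rescaled to TPM and -0.02 with median ratio scaling. CHD1, which binds H3K4me3 through its chromodomains and acts in transcribed genes, was at 31.0, 28.8 and 49.6 FPKM in EV, 16.9, 19.5 and 49.4 in Short and 14.7, 12.7 and 41.2 in Long. Its replicates 1 and 2 were lower under both isoforms than any EV library, and its replicate 3 stayed high under all 3 plasmids.

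CHD9 had the largest difference of the CHD genes. It was at 6.56, 5.51 and 9.03 FPKM in EV, 2.69, 3.99 and 8.28 in Short and 1.42, 1.84 and 6.64 in Long. As in CHD1, replicate 3 was the highest library of each group, and with it the groups overlapped. The Long minus EV difference was -1.08 (SE 0.19) for CHD9 and -0.80 (SE 0.15) for CHD1, both in log2(FPKM + 1). Short minus EV was -0.51 for CHD9 (limma with Benjamini-Hochberg adjustment, adjusted p = 0.164) and -0.46 for CHD1 (adjusted p = 0.129). Both were lower in Short in 3 of 3 passages.

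CHD8, a remodeller that restrains beta-catenin target genes and is known from autism genetics, was at 28.2, 27.4 and 29.3 FPKM in EV and at 35.1, 35.9 and 33.3 in Long. All 3 Long libraries were above all 3 EV libraries, and the Short libraries (31.8, 28.1 and 34.7) lay across both. Its Long minus EV difference was 0.29 in log2(FPKM + 1), and CHD8 was not called higher after TPM or median ratio scaling. CHD4 was at 111, 106 and 94.0 FPKM in EV, 108, 105 and 93.8 in Short and 110, 103 and 111 in Long, with all groups overlapping. CHD2, CHD3, CHD6 and CHD7 had Long minus EV differences between -0.05 and 0.08.

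Of the 7 ISWI ATPases and partners, 4 were called lower in Long than in EV (beside 6.33% of all genes, in the comparison that chose them). The other 3 were not called, and the median difference was -0.31 in log2(FPKM + 1), beside 0.04 over all genes. SMARCA1, the ISWI ATPase also called SNF2L, was at 25.4, 23.2 and 24.3 FPKM in EV, 20.6, 16.9 and 21.3 in Short and 16.4, 14.3 and 18.9 in Long. The 3 EV libraries were above all Short and all Long libraries. It differed from the other low genes in that its replicate 3 was not the highest in EV. Long minus EV was -0.54 (SE 0.07), Short minus EV -0.30 (limma with Benjamini-Hochberg adjustment, adjusted p = 0.110) and Long minus Short -0.23 (adjusted p = 0.547), each lower in 3 of 3 passages.

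SMARCA5, the other ISWI ATPase (SNF2H), was at 39.6, 37.2 and 50.1 FPKM in EV, 35.3, 31.9 and 49.7 in Short and 29.2, 27.0 and 47.2 in Long, with replicate 3 high in each group. BAZ1A, its partner in the ACF complex, was at 24.6, 20.8 and 34.3 FPKM in EV, 19.1, 17.2 and 31.5 in Short and 17.4, 15.9 and 32.3 in Long. Its difference in log2(FPKM + 1) was -0.24 for Short minus EV and -0.07 for Long minus Short. BAZ2B was at 6.83, 5.57 and 9.78 FPKM in EV, 3.62, 3.48 and 9.15 in Short and 4.76, 3.05 and 7.87 in Long, and its Short and Long libraries overlapped. BAZ2A, the partner of SMARCA5 at silent ribosomal genes, was at 48.9, 48.6 and 42.2 FPKM in EV, 53.4, 46.9 and 44.7 in Short and 52.0, 49.5 and 48.5 in Long, and its groups overlapped. BPTF, the large subunit of NURF, had a Long minus EV difference of -0.28 and BAZ1B one of 0.11, and neither was called. BPTF was called lower after TPM and after median ratio scaling.

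None of the 13 BAF and PBAF genes was among those called in Long against EV, beside 6.33% of all genes lower and 1.99% higher. In that comparison, which chose the genes, 6 of 13 were higher and 0 lower at an unadjusted limma p under 0.05. The share of all genes at that unadjusted threshold was not counted there, so nothing is read from the 6. In Short against EV, 0 of 13 passed limma with Benjamini-Hochberg adjustment, and 5 were higher and 0 lower at an unadjusted p under 0.05 (beside 15.2% and 6.88% of all genes). Their median difference in log2(FPKM + 1) was 0.12 in Long and 0.11 in Short, with 11 and 10 of 13 above 0. After TPM scaling these became 9 and 7 of 13, with medians of 0.05 and 0.03. The DNA-binding subunit SMARCE1 was at 91.4, 95.1 and 112 FPKM in EV, 103, 77.05 and 115 in Short and 98.1, 85.6 and 117 in Long. Its Long minus EV difference was 0.0048 (SE 0.08), and its libraries overlapped in all groups. ARID2, the PBAF subunit, had the largest difference of the 13 at -0.22 (SE 0.10). It was at 8.27, 9.10 and 10.96 FPKM in EV, 8.61, 6.86 and 12.0 in Short and 6.47, 7.20 and 10.6 in Long.

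BAF complexes carry either SMARCA4 or SMARCA2 as their ATPase. SMARCA4 (BRG1) was at 68.3, 61.2 and 61.2 FPKM in EV, 79.1, 70.2 and 67.2 in Short and 72.4, 69.0 and 69.5 in Long. In Short it was 0.18 above EV in log2(FPKM + 1) (SE 0.05) and higher in 3 of 3 passages, without passing the threshold (limma with Benjamini-Hochberg adjustment, adjusted p = 0.114). SMARCA2 (BRM) was at 11.5, 12.8 and 15.5 FPKM in EV, 15.9, 12.4 and 13.3 in Short and 13.7, 12.5 and 14.4 in Long. Its groups overlapped throughout.

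None of the 3 INO80 and SWR1 class ATPases was called. In Long against EV 6.33% of all genes were called lower and 1.99% higher. At an unadjusted p under 0.05 limma had 2 of the 3 higher in Short than in EV, beside 15.2% of all genes. SRCAP, which loads H2A.Z into nucleosomes, was at 44.04, 38.05 and 41.6 FPKM in EV, 49.0, 45.6 and 46.8 in Short and 44.3, 44.9 and 48.0 in Long. All Short libraries were above all EV libraries, but the difference of 0.19 in log2(FPKM + 1) did not pass the threshold (limma with Benjamini-Hochberg adjustment, adjusted p = 0.124). INO80 was at 5.93, 6.68 and 7.11 FPKM in EV, 5.89, 10.4 and 9.20 in Short and 7.10, 7.12 and 7.25 in Long, and EP400 ranged from 9.45 to 11.8 over the 9 libraries.

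SMARCAD1 and HELLS, the remaining SNF2 ATPases, were both among the genes called lower in Long than in EV (beside 6.33% of all genes, in the comparison that chose them). SMARCAD1, which helps to restore silent chromatin after replication, was at 13.05, 13.02 and 20.7 FPKM in EV, 8.64, 9.26 and 19.2 in Short and 6.68, 6.97 and 18.1 in Long. HELLS (LSH), a remodeller needed for DNA methylation of repeats, was at 23.5, 24.1 and 29.7 FPKM in EV, 18.9, 18.4 and 26.3 in Short and 19.0, 17.1 and 24.3 in Long. Both had their highest library of each group in passage 3. The Long minus EV differences were -0.62 for SMARCAD1 and -0.35 for HELLS in log2(FPKM + 1).

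Of the 3 histone methyltransferases none was called by limma in a comparison of plasmids. Over all genes 6.33% were called lower and 1.99% higher in Long against EV. At an unadjusted p under 0.05, 1 of the 3 was higher in Short against EV, beside 15.2% of all genes. In Long against Short there were 0, beside 5.93% of all genes lower and 1.61% higher. KMT2A (MLL1), an H3K4 methyltransferase, was at 18.0, 18.6 and 19.5 FPKM in EV, 23.0, 19.2 and 21.3 in Short and 23.0, 20.1 and 21.2 in Long. ASH1L was at 8.71, 8.04 and 11.2 FPKM in EV, 7.85, 7.15 and 12.1 in Short and 6.60, 6.83 and 10.6 in Long. SETD2, which writes H3K36me3, was at 14.6, 15.3 and 17.9 FPKM in EV, 14.4, 12.1 and 18.3 in Short and 12.5, 12.1 and 18.8 in Long. The KMT2A difference of Long minus EV was 0.18, against -0.21 for ASH1L and -0.15 for SETD2.

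Counted over the whole set, Long against EV had 9 of 37 members called lower, beside 6.33% of all genes tested, and 1 called higher, beside 1.99%. Nothing is read from these shares because that comparison chose the members. With passage 1 left out 0 members were called, beside 2 of 13801 genes, and with passage 2 left out 0, beside 100 genes. Without the passage in the fit 0 members were called, beside 2 genes. The 9 were ATRX, CHD1, CHD9, SMARCA1, SMARCA5, BAZ1A, BAZ2B, SMARCAD1 and HELLS. After TPM or median ratio scaling 10 members were called lower and none higher, beside 1279 and 1240 genes called in either direction. The median of the 37 was 0.03 in log2(FPKM + 1), beside 0.04 over all genes, and 22 of the 37 values were above 0.

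In Short against EV, 0 of 37 members passed the adjusted threshold (limma with Benjamini-Hochberg adjustment), beside 0.0362% of all genes. At an unadjusted p under 0.05, 8 members were lower in Short (21.6%, beside 6.88% of all genes). These were 8 of the 9 lower in Long, all except SMARCA5, and the EV libraries are the same in both comparisons. At the same threshold 8 members were higher (21.6%, beside 15.2%), namely SMARCA4, SMARCB1, SMARCD1, SMARCD2, ARID1A, INO80, SRCAP and KMT2A. In Long against Short, 0 of 37 passed the adjusted threshold, beside 0.00725% of all genes. At an unadjusted p under 0.05, ATRX, CHD1, CHD9, SMARCA1 and SMARCA5 were lower in Long (13.5%, beside 5.93%), and 0 were higher (beside 1.61%).

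Cell passage was a measure the choice of genes did not use. Of the 37 members, 18 (48.6%) differed between passages (limma F test with Benjamini-Hochberg adjustment, adjusted p under 0.05), beside 36.4% of all genes tested. Of these 18, 16 were highest in passage 3, which is 43.2% of the members, beside 16.5% of all genes. The other two, CHD3 and SMARCB1, were highest in passage 1. The 16 were ATRX, CHD1, CHD7, CHD9, SMARCA1, SMARCA5, BAZ1A, BAZ2B, BPTF, SMARCE1, ARID2, PBRM1, SMARCAD1, HELLS, SETD2 and ASH1L. All 9 members lower in Long were among them, in the same fit of the same 9 libraries. That overlap was not counted over all genes, so it is not read as a trait of the members. Passage 3 also held the deepest library of each group, and whether depth bears on these values was not tested. With passage 3 left out, 0 members differed between the 2 remaining passages, beside 30 of 13801 genes. At an unadjusted limma p under 0.05 there were 6 members, and the share of all genes there was not counted.

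ATRX had the widest passage range, with means of 7.29, 7.69 and 17.9 FPKM over the 3 libraries of passages 1 to 3 (1.47 in log2(FPKM + 1), limma with Benjamini-Hochberg adjustment, adjusted p = 0.0033). CHD1 followed with 20.9, 20.4 and 46.8 FPKM (range 1.23, adjusted p = 0.00054) and CHD9 with 3.56, 3.78 and 7.99 FPKM (range 1.13, adjusted p = 0.0026). BAZ2B had means of 5.07, 4.04 and 8.93 FPKM, and SMARCAD1 had a range of 1.00. Over all 37 members replicate 3 was the highest for 19 in EV, 18 in Short and 22 in Long, beside 35.7%, 29.0% and 36.4% of all genes.

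**Figure D2:**
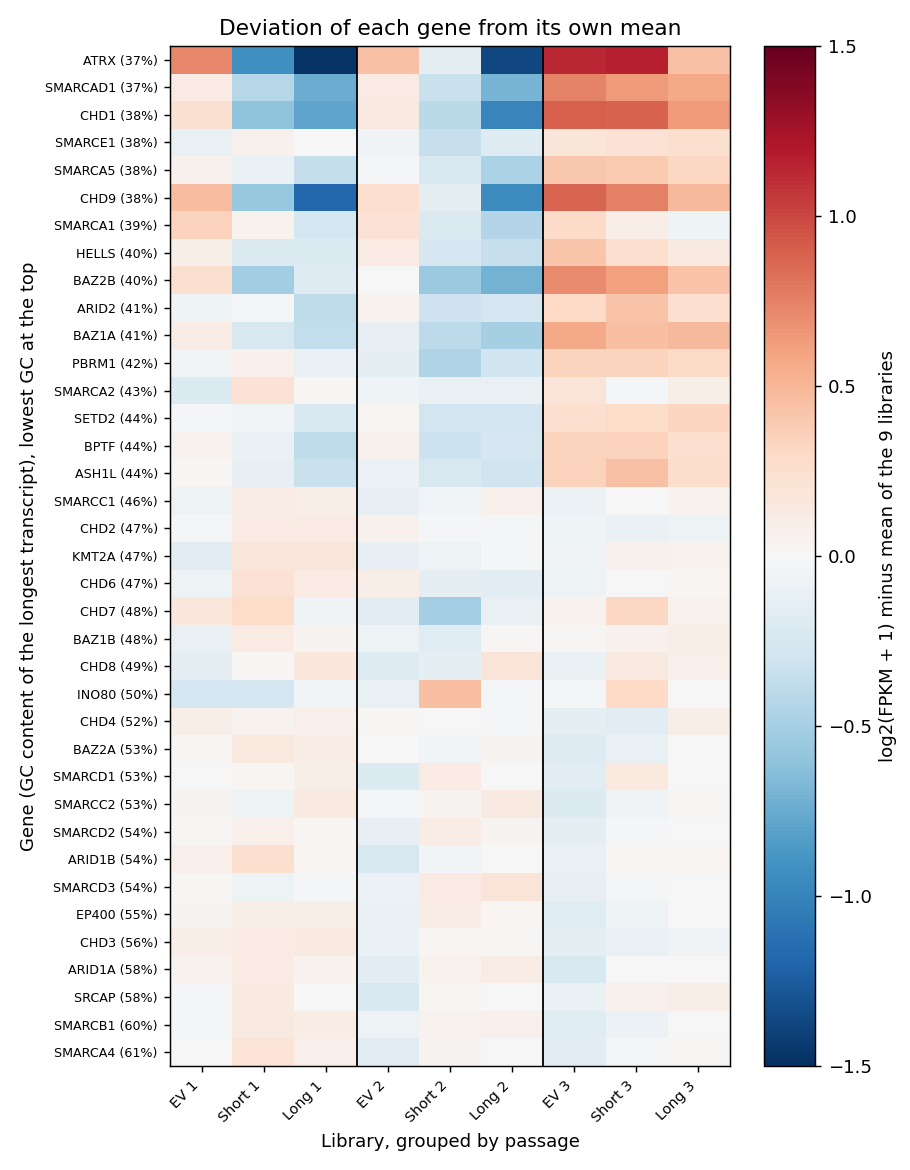
Deviation of each of the 37 genes from its own mean over the 9 libraries in log2(FPKM + 1), with genes ordered from the lowest transcript GC content (top) to the highest and libraries grouped by passage. ATRX, SMARCAD1, CHD1 and CHD9 are below their mean in Short and Long of passages 1 and 2 and above it in passage 3 under every plasmid, and genes in the lower part of the map vary little.

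Base composition moved with these differences. The 9 members lower in Long had transcripts of 36.9% to 40.9% GC (median 38.4%), and the other 28 tested had 38.4% to 61.0% (median 49.7%), with a median of 47.8% over the 13398 tested genes that have an annotated transcript. Lengths did not separate them, with medians of 7684 nt and 8466.5 nt. Across the 37 members Spearman's rho between GC content and the difference was 0.81 for Long minus EV and 0.84 for Short minus EV, beside 0.52 and 0.62 across all genes. These are correlations across genes from the same 9 libraries, with no test. Long against EV chose the members, and Short against EV shares its EV libraries. Nothing is therefore read from how the members differ from all genes here. With the Ensembl canonical transcript in place of the longest one, rho was 0.82 and 0.85.

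The relation was present within each passage. For Long minus EV, rho across the members was 0.54, 0.87 and 0.86 in passages 1 to 3, beside 0.15, 0.55 and 0.51 across all genes. For Long minus Short it was 0.55 across the members and 0.04 across all genes. The first comparison chose the members and the second shares its Long libraries, so the gaps to all genes are description only. For transcript length, rho across the members was -0.11 for Long minus EV and -0.08 for Short minus EV, beside -0.19 and -0.21 across all genes. The range between passages was also wider in members of low GC content (rho -0.74), beside -0.22 across all genes.

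Over all genes tested, the median difference of Long minus EV was also lowest at low GC content. The members were chosen on that comparison, and ATRX is among the 8 under 40% GC. Their medians are therefore given as a description, and nothing is read from how they differ from those of all genes. Under 40% GC the median difference in log2(FPKM + 1) was -0.58 for 8 members and -0.19 for all 2358 genes tested in that range. From 40% to 45% it was -0.22 for 8 members and -0.0092 for 2953 genes, and from 45% to 50% it was 0.11 for 7 members and 0.07 for 2314 genes. At 50% and above it was 0.12 for 14 members and 0.09 for 5773 genes. In Short minus EV the medians under 40% GC were -0.33 for the members and -0.12 for all genes. After a loess correction of each library on GC content, the ATRX difference of Long minus EV was -1.34. Of the 37 members 0 were then called in that comparison (limma with Benjamini-Hochberg adjustment). Over all genes the calls fell likewise, from 1148 to 1 of 13801, so the 0 is not a trait of the members. At an unadjusted p under 0.05 limma had 14 members, and the share of all genes at that threshold was not counted.

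The genes whose pattern over the 9 libraries was most like that of ATRX were not members. By Pearson's r of log2(FPKM + 1), they were SGO2 (0.996), a protector of centromeric cohesion, the kinetochore protein CENPF (0.995), SKIC3 (0.995), a subunit of the Ski complex that works with the RNA exosome, RB1CC1 (0.995), an autophagy initiation factor, and the spindle pole protein ASPM (0.994). SGO2 was at 9.64, 8.13 and 13.3 FPKM in EV, 4.23, 6.56 and 12.3 in Short and 3.07, 3.49 and 9.14 in Long. The transcripts of these 5 genes had 34.4% to 40.8% GC. In all, 672 genes (4.87%) reached an r over 0.9 with ATRX, and the 9 libraries share the passages and the base composition relation above.

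Of the other members, CHD9 was the most alike (r = 0.992, the 13th of 13800 genes), followed by CHD1 (0.954), SMARCAD1 (0.944) and HELLS (0.904). A total of 4 of the 36 other members were over 0.9, beside 4.87% of all genes, and 20 of 36 had an r below 0. The median r was -0.19 over the 36 members and -0.29 over all 13800 genes, so most genes were below 0 as well. The lowest was SMARCB1 at -0.88. SMARCB1 was at 87.6, 83.9 and 78.0 FPKM in EV, 97.3, 91.9 and 83.0 in Short and 95.5, 93.2 and 88.6 in Long, with replicate 3 the lowest of each group where it was the highest for ATRX.

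A wider list of 85 partners and relatives held other subunits of the same complexes, H3 chaperones, SNF2 proteins and lysine methyltransferases, of which 84 were matched and 81 tested. In Long against EV, 7 of 81 were called lower (ACTR6, UCHL5, RSF1, ERCC6L, RAD54B, HLTF and SHPRH), or 8.64%, beside 6.33% of all genes, and 2 higher (RUVBL2 and VPS72), or 2.47%, beside 1.99%. Both shares were near those of the whole table, and the median difference in log2(FPKM + 1) was 0.08, beside 0.04. None of the 81 was called in Short against EV or in Long against Short (limma with Benjamini-Hochberg adjustment). At an unadjusted p under 0.05, 6 were lower and 15 higher in Short against EV (beside 6.88% and 15.2% of all genes). Long against Short had 5 lower and 0 higher (beside 5.93% and 1.61%). Between passages 23 (28.4%) differed, beside 36.4% of all genes. None of the 12 other BAF and PBAF subunits, 11 other NuRD subunits and 13 other methyltransferases tested was called in Long against EV. At an unadjusted limma p under 0.05, 1 of the BAF and PBAF subunits and 3 of the methyltransferases were higher. The NuRD subunits had 1 lower and 5 higher there. The share of all genes at that threshold was not counted for Long against EV. Of the 12 other SNF2 proteins 4 (33.3%) were called lower, beside 6.33% of all genes, in the comparison that chose the members. The other ISWI partners had 1 of 4 lower. The other INO80, SRCAP and TIP60 subunits had 2 of 20 lower and 2 higher.

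RSF1, the partner of SMARCA5 in the RSF complex, had the largest difference from EV in both isoforms. It was at 17.1, 15.9 and 23.2 FPKM in EV, 8.69, 10.5 and 20.1 in Short and 8.96, 6.87 and 17.4 in Long. Long minus EV was -0.79 in log2(FPKM + 1), and Short minus EV was -0.55 (limma with Benjamini-Hochberg adjustment, adjusted p = 0.110). HLTF, a translocase of stalled replication forks, had the largest difference between Long and Short at -0.31 (adjusted p = 0.622). It was at 25.1, 24.5 and 31.7 FPKM in EV, 15.7, 18.0 and 29.2 in Short and 13.5, 11.6 and 26.3 in Long. In both genes replicate 3 was again the highest library of each group, and their transcripts had 37.9% and 36.6% GC.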

How the data were processed

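RNA was measured by RNA-seq (TruSeq Stranded mRNA libraries, Illumina, paired-end) in the 9 libraries. The authors deposited FPKM values for each Ensembl gene in each library, in 1 table. The submitters' processing notes name TopHat 1.4.1, Cufflinks and hg19. Whether strand was used in counting is not given in the sources used here. The table holds no counts, so depth is known only relative to EV replicate 1, from the steps in the lowest values, and no counting intervals were computed.

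FPKM was tested as log2(FPKM + 1) with limma 3.58.1 in R 4.3.3 (lmFit, and eBayes with its trend on the mean level). Genes had to average 1 FPKM or more across the 9 libraries, which left 13801, and the terms were group and replicate number. Benjamini-Hochberg adjustment ran over all 13801 genes, with a threshold of 0.05, and "called" means past it. The pairing rests on the methods, which repeat the transfections in 3 passages and run the editing test replicate by replicate against EV, and on the replicate numbers of the labels. That equal numbers mean the same passage is not stated outright. Deviations from the group means correlated at 0.55 on average over the 9 pairs of same-numbered libraries (0.33 to 0.81, each over 0.1). Over the 18 other pairs the average was -0.26 (-0.63 to 0.37), so the ranges overlap. Deviations within a group sum to 0, which pulls the second average below 0 when the first is above it. Nothing says that the passages were separate cultures of other origin, so they repeat the experiment within 1 line. With replicate number in the fit, p-values of plasmid comparisons rest on how far the differences vary from passage to passage. The passage test uses that same remaining spread as its error.

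The members and lists were chosen with earlier results of these data known. Values per library are given for ATRX, DAXX, the member of each role group with the highest EV level and the one with the largest difference of Long from EV, the 5 members with the widest passage range, the 5 genes most like ATRX (values for SGO2 only) and the partner with the largest difference in each comparison. CHD8, SMARCA4, SMARCA2, SMARCA5, BAZ1A, INO80, SETD2 and SMARCB1 were added after their values were seen. Symbols, GC content and lengths came from GENCODE annotation of GRCh37, the build of hg19, which matched 47578 of 54562 identifiers (87.2%). Alternatives were a pseudocount of 0.1, TPM and median ratio scaling, no replicate block, only the groups compared, no trend, each replicate left out, no filter or at least 5 FPKM, and loess correction on GC content or length.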

Additional observations from a re-analysis of the deposited data

How the results depend on the processing

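The count of members called in Long against EV was 10 and stayed between 8 and 10 with a pseudocount of 0.1, TPM or median ratio scaling, at least 5 FPKM, a length correction with the replicate block, or only the groups compared. It was 0 with no replicate block, 6 with no eBayes trend, 0 with no filter on low values (27356 genes tested) and 0 with a GC correction with the replicate block, and 0 to 10 with 1 replicate left out (0 without replicate 1 or 2, 10 without replicate 3). Over the whole table the calls of that comparison moved likewise, from 1148 genes to 2 with no replicate block, 1 with no filter and 1 with the GC correction. They were 2 without replicate 1, 100 without replicate 2 and 1031 without replicate 3. Members called in Short against EV were 0 to 1 with 1 replicate left out, the 1 being CHD1 without replicate 3, and 0 in Long against Short under every alternative tried, by limma. Members differing between passages were 0 to 17 with 1 replicate left out (0 without replicate 3) and 13 to 18 under the other alternatives.

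The ATRX difference stayed below 0 under every alternative tried, at -1.996 to -1.25 for Long minus EV, -1.11 to -0.27 for Short minus EV (-0.27 without replicate 1) and -0.98 to -0.63 for Long minus Short. Its adjusted p ranged from 0.0576 to 0.826 for Short against EV and from 0.0633 to 1.0 for Long against Short, the highest of each with no replicate block. Of 117 values of the other 9 members called in Long against EV, 62 stayed past the threshold, 55 did not and 0 changed sign. The cause of these changes was not tested. With 3 libraries per group, and depth known only in relative terms, small differences between the isoforms could not be resolved.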
